A study of Homo sapiens with 6 samples.

Results

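AGO2 peaks that the authors' annotation places at a promoter and transcription start (promoter-TSS) or in a 5' untranslated region (5' UTR) made up 541 of the 7772 peaks in a list from the human prostate cancer cell line 22RV1. They were taken by the start of the annotation text alone. There were 425 promoter-TSS peaks carrying 334 gene names and 116 5' UTR peaks carrying 91, and 12 of the 413 genes had peaks of both classes. The 6 libraries came from cells transfected with miR-194 mimic (3 libraries) or with negative control (3 libraries), each at 20 nM, and irradiated with ultraviolet light 24 h later. AGO2 was then immunoprecipitated with the crosslinked RNA (HITS-CLIP). Antibody 4F9 against AGO2 was used, with mouse IgA as the control antibody, and nothing in the labels tells whether replicate libraries stem from different cultures. The deposited table gives 1 score per peak and no value per library or group, and it does not tell which libraries a score rests on. Mimic and control cells could therefore not be compared, no replicate stands behind a value, and the depth behind a peak is unknown. The score is the authors' own, the sources used here do not define it, and below it only ranks and describes the peaks of this list. Of 10 luminal prostate marker genes looked up, 5 had a peak. None of 5 markers of blood, endothelial, mesenchymal or liver cells had one.

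MicroRNAs guide AGO2 to RNA mainly through the seed, a short stretch near the 5' end of the microRNA that pairs with the target. The best known target sites lie in 3' UTRs. The 5' UTR is scanned by the small ribosomal subunit on its way to the start codon, and the promoter itself is DNA, most of which is not part of the named gene's mature transcript. Many human promoters are shared by neighbouring genes that are read in opposite directions. A promoter label beside an RNA peak therefore names the nearest annotated start and need not name the transcript that was crosslinked.

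The sequences that carry the result are the seed of miR-194-5p (bases 2 to 8, in capitals in the first line) and sites chosen from the peaks with a match. For 5' UTR peaks these are the sites found in a single place of the named gene, and for promoter-TSS peaks they are those of the 5 highest matched peaks and 2 that lie in the named gene (TINAGL1 and TOP1). In the target sites, the capitals mark the bases of the site, written 5' to 3' on the strand of the peak. These bases match the seed, except that the final A of TGTTACA and CTGTTACA lies outside the match to bases 2 to 8. The microRNA is from RefSeq (GRCh38.p14), and the 30-base contexts are from GENCODE 29 transcripts on GRCh38, with the peak's label first and the gene whose exon holds the site after it.
miR-194-5p: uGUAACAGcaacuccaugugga
LAPTM4A, 5' UTR of LAPTM4A: aaggaggcccgcCTGTTACgatggtgtcca
TOR1AIP2, 5' UTR of TOR1AIP2: acttgggtacgtgTGTTACAacggcaagag
SLITRK1, 5' UTR of SLITRK1: gcaggatggtcgCTGTTACtttgtgatgag
ZNF672, 5' UTR of ZNF672: cccctttcctctCTGTTACAgtgccctttc
ARHGAP29, 5' UTR of ARHGAP29: cagtttttctgaCTGTTACAtgaaaggatg
LOC100147773 promoter-TSS, exon of TMCO1: gtcagagttggtCTGTTACtcggtggtggc
U2AF1L4 promoter-TSS, exon of PSENEN: tgatccttgcatCTGTTACttagggtcaag
HIST2H2BE promoter-TSS, exon of HIST2H2AC: atccaggccgttCTGTTACcaaagaaaacc
PPP1R18 promoter-TSS, exon of NRM: actcccctggcaCTGTTACttgcctctgcg
DESI1 promoter-TSS, exon of XRCC6: atttaaatttgcCTGTTACtgacgttaacg
TINAGL1 promoter-TSS, exon of TINAGL1: cctgggcgccatCTGTTACtgtgacctctt
TOP1 promoter-TSS, exon of TOP1: tgcgaacttaggCTGTTACAcaactgctgg
The sites of the 5 highest matched promoter-TSS peaks each lie in an exon of a gene other than the one that names the peak. Only exons on the peak's strand were searched. All of these peaks but that of PPP1R18 ran opposite to the named gene, whose exons could thus not be found.

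The 2 classes had nearly the same score and length. Promoter-TSS peaks had a median score of 14 (95% interval 14 to 15, n = 425) and 5' UTR peaks one of 14 (13 to 15, n = 116), against 15 in the 7231 other peaks of the list. The medians were 13 in introns and 17 both in coding exons and in 3' UTRs. The intervals of both classes include the 15 of the other peaks, and that of the 5' UTR peaks also includes the 13 of introns. Median length was 63 nt (60 to 67) for promoter-TSS peaks and 62 nt (59 to 74) for 5' UTR peaks, against 67 nt in the others. Scores of at least 50 were reached by 28 promoter-TSS peaks (6.59%, 4.42 to 9.38%) and 3 5' UTR peaks (2.59%, 0.537 to 7.37%), intervals that overlap, against 10.8% of the other peaks. Intron peaks reached 50 in 0.505% of cases. Small RNA genes, which have no 5' UTR, gave 10 of the 28, and promoter-TSS peaks of protein-coding genes reached 50 in 4.78% of cases. The highest promoter-TSS score was 536 and the highest 5' UTR score 72, while the lowest was 5 in each. Within a class, longer peaks tended to score higher, with a Spearman rank correlation of 0.396 over the promoter-TSS peaks and 0.223 over the 5' UTR peaks, both across peaks that are not independent. The shortest promoter-TSS peak, of TMEM258, spanned 8 nt, and the longest, of PRC1-AS1, spanned 186 nt. Among 5' UTR peaks, FAM111B had the shortest at 23 nt and SLC20A1 the longest at 226 nt. Intervals throughout cover counting error only.

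**Figure D1:**
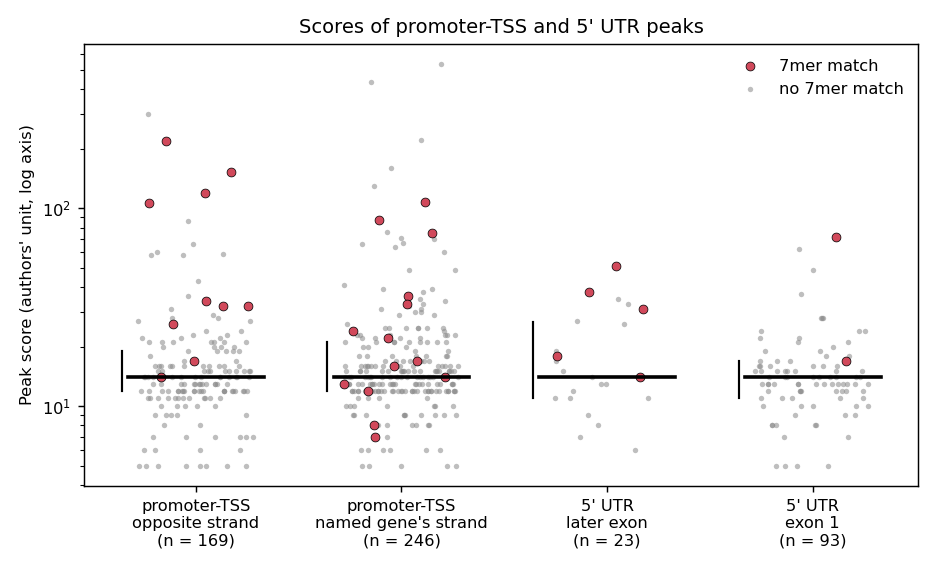
Score of each peak (log axis) by class, with promoter-TSS peaks split by strand against the named gene and 5' UTR peaks by exon; red points have a 7mer match, horizontal lines are medians, vertical bars interquartile ranges, and the 10 promoter-TSS peaks of unknown strand are left out. Most peaks of every set lie between 11 and 27, and the scores over 72 are all promoter-TSS peaks.

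Most of the highest promoter-TSS peaks had an exon of a gene other than the named one close by. For each peak, exons of other protein-coding genes on the peak's strand were looked for from 1000 nt before to 100 nt after the named transcript's start on GRCh38, and 9 of the 10 highest peaks had one, against 195 of all 425 (45.9%). MIR4485 held the highest scores, 536 at chr11:10529882-10529982 and 433 at chr11:10530056-10530214 (hg19, minus strand), with further peaks of 71 and 25 beside them. These lie by MTRNR2L8, a copy of mitochondrial 16S ribosomal RNA sequence in the nuclear genome. All 20 bases of mature miR-4485-3p also stand in MT-RNR2, the mitochondrial 16S ribosomal RNA gene, so the reads could belong to a near-identical copy and their origin is uncertain.

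Among snoRNA labels, SNORA75 scored 222 and SNORD73A 160. SNORA75 sits in an intron of NCL, which encodes nucleolin, and SNORD73A in one of RPS3A, a ribosomal protein gene. Exons of these host genes run on the same strand as the peaks. The peak named for FAM35A scored 299 and ran opposite to that gene, on the strand of GLUD1, the mitochondrial glutamate dehydrogenase. LOC100147773, a long non-coding RNA, had a score of 220 on the strand of TMCO1, an endoplasmic reticulum calcium channel gene. U2AF1L4, a paralogue of a splicing factor subunit, had 152 on the strand of PSENEN, a subunit of gamma-secretase. HIST2H2BE, a histone H2B gene, had 120 on the strand of HIST2H2AC, a histone H2A gene. PPP1R18, which encodes a phosphatase-binding protein, had 108 beside NRM, a nuclear envelope protein gene on the same strand. PMEPA1, a TGF-beta-responsive gene that restrains that pathway, was the exception of the 10, with 129 at chr20:56284901-56285083 on its own strand and no other protein-coding exon in the window.

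Of the 28 promoter-TSS peaks scoring at least 50, 11 were opposite to the named gene with such an exon near, 11 on its strand with one, and 2 of unknown strand. The other 4 were PMEPA1, TINAGL1 (75), RPL10 (66) and RPL13A (64). TINAGL1 encodes a secreted matrix protein, and RPL10 and RPL13A encode proteins of the large ribosomal subunit. A score of at least 50 was thus reached by 8.8% of the 125 opposite-strand peaks with an exon near and none of the 44 without. Of peaks on the named gene's strand it was reached by 15.7% of the 70 with an exon near and 2.27% of the 176 without. Most of these high same-strand peaks with an exon near carry small RNA labels (MIR4485, SNORA75, SNORD73A, SNORA19, SCARNA7 and SNORA51). The others are of PPP1R18, LRRN4CL and INPP5E, and the part of the small RNA labels in this contrast was not tested.

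Many promoter-TSS peaks ran opposite to the gene that names them. Of 415 promoter-TSS peaks whose gene had a known strand, 169 lay opposite to it (40.7%, 36 to 45.6%), and peaks at transcript ends stood at 39.4%. The 5' UTR peaks had 0 of 115 and coding exon peaks 0 of 2567. The table keeps 210 further peaks, with no gene name, in a class of its own called wrong strand, so these zeros may be set by the annotation and no difference between the classes is read from them. By the kind of named gene, the opposite share was 91.7% for 36 long non-coding RNA peaks, 39.9% for 333 protein-coding peaks and 3.23% for 31 microRNA peaks. Many long non-coding RNAs are annotated as starting head to head with a protein-coding gene. An exon of another protein-coding gene ran on the peak's strand for 125 of the 169 opposite-strand peaks (74.0%, 66.7 to 80.4%), against 70 of the 246 on the named gene's strand (28.5%, 22.9 to 34.5%). These intervals do not overlap, but the window was set around the named start and not around the peak. Exons of the named gene itself were left out, and how often other transcript starts have such an exon was not counted. The other gene had a peak of its own on that strand elsewhere in the list for 37 of the 125 opposite-strand peaks (29.6%, 21.8 to 38.4%), such as that by XRCC6, and for 30 of the 70 same-strand ones (42.9%, 31.1 to 55.3%).

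**Figure D2:**
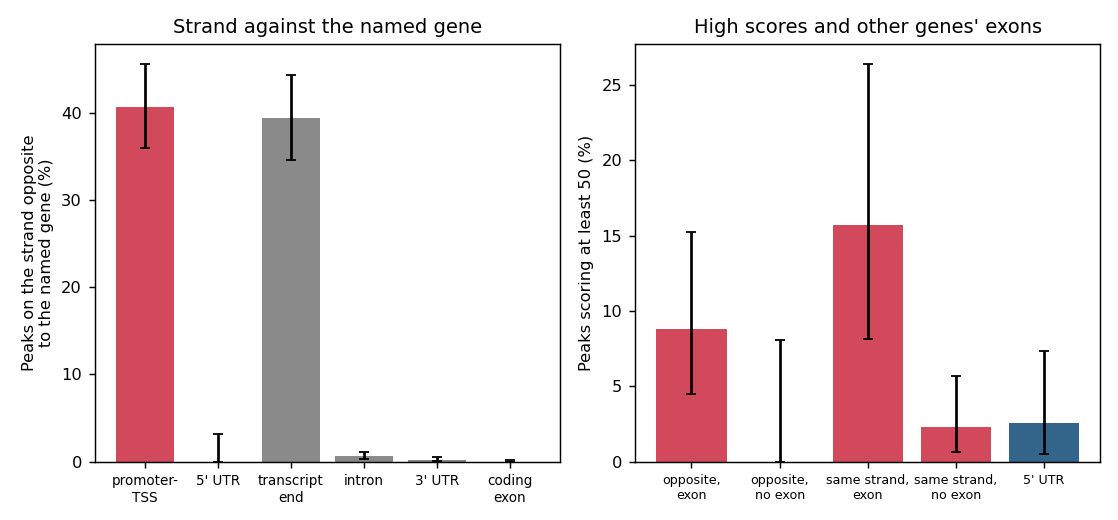
Left, percent of peaks opposite to the named gene by class of peak; right, percent scoring at least 50 by strand and by whether another protein-coding gene's exon lies near, both with exact 95% intervals. Promoter-TSS peaks stand at 40.7% and transcript ends at 39.4%, while the zero of the 5' UTR class may be set by the annotation. On the right, same-strand peaks with an exon near stand at 15.7%, and most of those high peaks carry small RNA labels.

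The 10 highest 5' UTR peaks all lay on the strand of the gene that names them, which the annotation may have set for the whole class. LAPTM4A, a lysosomal membrane protein gene, led with 72 at chr2:20251216-20251385 (hg19, minus strand) in exon 1. ARSB, a lysosomal sulfatase, had 62 over only 29 nt, and TOR1AIP2, a nuclear envelope cofactor of torsins, had 51 in exon 3. CDS1, an enzyme of phospholipid synthesis, had 49. SLITRK1, a neuronal adhesion protein, had 38, PCGF3, a Polycomb subunit, 37, and SLCO5A1, an organic anion transporter family member, 35. Below these came CENPN, a centromere protein, with 33, the zinc finger gene ZNF672 with 31 and the phosphate transporter SLC20A1 with 28. Beside it at 28 stood CTNNB1, which encodes beta-catenin, and C22orf34. Exon 1 held 93 of the 116 5' UTR peaks, exon 2 held 11 and exon 3 or later 12. Of the 10 highest, 5 lay in exon 1.

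A 7mer match here is an 8mer (CTGTTACA), a 7mer-m8 (CTGTTAC) or a 7mer-A1 (TGTTACA) that the table lists on the peak's own strand. It was present in 24 of 425 promoter-TSS peaks (5.65%, 3.65 to 8.29%) and 7 of 116 5' UTR peaks (6.03%, 2.46 to 12%), against 13.9% of the other peaks. Coding exon peaks held one in 15.0% of cases (13.7 to 16.5%), above the promoter-TSS interval and above that of the 5' UTR peaks. In 127 coding exon peaks the best listed site was a 6mer, and in 154 it lacked the 6mer. The counts were 3 and 0 in promoter-TSS peaks and 0 and 0 in 5' UTR peaks. Whether sites were listed by the same rule in these classes is therefore not known. Intron peaks stood at 4.61% and 3' UTR peaks at 19.8%, but their sites were listed with other patterns and do not compare directly. The same limit holds for the 13.9% of the other peaks, which include these classes. Split by exon, 5 of 23 5' UTR peaks in exon 2 or later had a match (21.7%, 7.46 to 43.7%), against 2 of 93 in exon 1 (2.15%, 0.262 to 7.55%). This split was chosen after the values were seen, and its intervals overlap narrowly. Opposite-strand and same-strand promoter-TSS peaks had nearly equal shares, 5.92% and 5.69%.

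**Figure D3:**
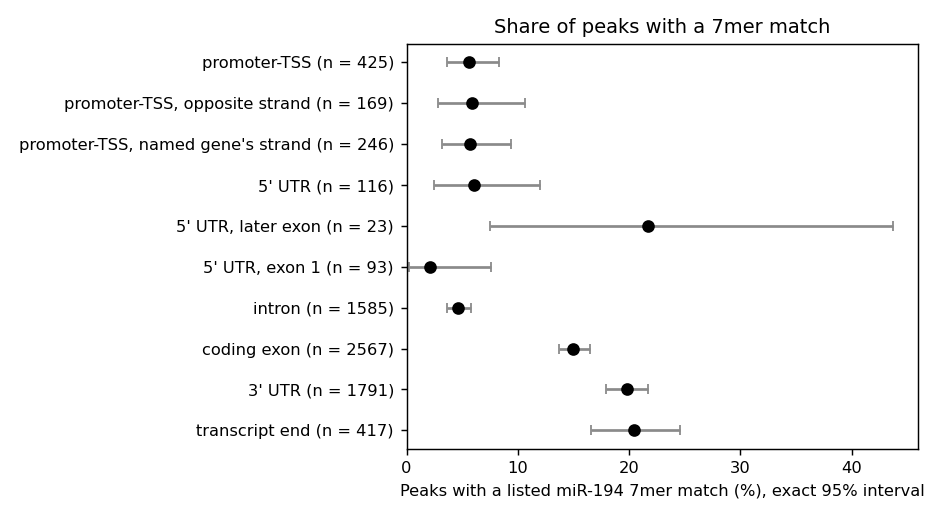
Percent of peaks with a 7mer match to miR-194-5p, with exact 95% intervals, for both classes, their subsets and other parts of genes. Promoter-TSS (5.65%) and 5' UTR peaks (6.03%) lie below coding exon peaks (15.0%), whose sites may be listed by another rule, and 5' UTR peaks outside exon 1 stand at 21.7%. Sites in introns, 3' UTRs and transcript ends may be listed by another rule too.

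Peaks with a match had higher scores in both classes as a whole, but not under every setting. The median score was 29 (interquartile range 15.5 to 78) in the 24 promoter-TSS peaks with a match, against 14 in the 401 without, and the geometric means differed 2.08-fold (1.41 to 3.08). On the named gene's strand alone the ratio was 1.45 (0.916 to 2.29), and with 8mers alone it was 1.03 (0.626 to 1.68), both intervals that include 1. In 5' UTR peaks the medians were 31 (17.5 to 44.5, n = 7) with a match and 13 (n = 109) without, a 2.13-fold ratio of geometric means (1.34 to 3.39), and 8mers alone gave 1.36 (0.846 to 2.2). Matched peaks were also longer, at a median of 97 against 62 nt in promoter-TSS peaks and 71 against 62 nt in 5' UTR peaks, and the part of length in the score difference was not tested. Opposite-strand promoter-TSS peaks with a match had a median of 33 (n = 10) against 14 without, and same-strand ones 19.5 (n = 14) against 14. Listed sites lay a median of 16 nt from the peak's centre in promoter-TSS peaks (18 of 27 within 20 nt) and 10 nt in 5' UTR peaks (6 of 7).

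The 8mer, the longest match, was not confined to high scores. Among promoter-TSS peaks, TAPT1 had an 8mer at a score of 32, BACE1-AS at 26, UCN at 14, TOP1 at 13 and UFSP1 at 8. TOP1 encodes DNA topoisomerase I, UCN the peptide hormone urocortin and BACE1-AS an antisense RNA to the beta-secretase gene. Among 5' UTR peaks, ZNF672 had one at 31, DIABLO, a mitochondrial promoter of apoptosis, at 17, and ARHGAP29, a GTPase-activating protein, at 14. No peak of either class had more than 1 listed site on its own strand.

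The listed bases were then searched for in transcripts on the peak's strand. Of 27 own-strand sites in promoter-TSS peaks, 20 were found in an exon, 16 of them only in a gene other than the one named and 4 in the named gene (TINAGL1, HMGB1, TOP1 and ALG13). One, of PCDHA6, was found in the promoter sequence alone, and 6 were found in neither. For 10 of the 27 sites the peak ran opposite to the named gene, so the search could not find them in its exons. The 16 are therefore partly set by the search. Of 7 sites in 5' UTR peaks, 6 lay in the named gene and 1, of DIABLO, was not found. In LAPTM4A the listed bases ended directly before the start codon, and in ARHGAP29 they ended 7 bases before it. The distance was 37 bases in SLITRK1, 101 in ZNF672, 488 in TOR1AIP2 and 694 in KIAA0355, whose listed bases also occur in its coding sequence. Sites of promoter-TSS peaks fell in several parts of the neighbouring genes, such as the coding sequence of HIST2H2AC and the 3' UTR of NRM. In HMGB1, a chromatin protein gene, and TOP1 they fell in the named gene's 5' UTR near its first base.

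**Figure D4:**
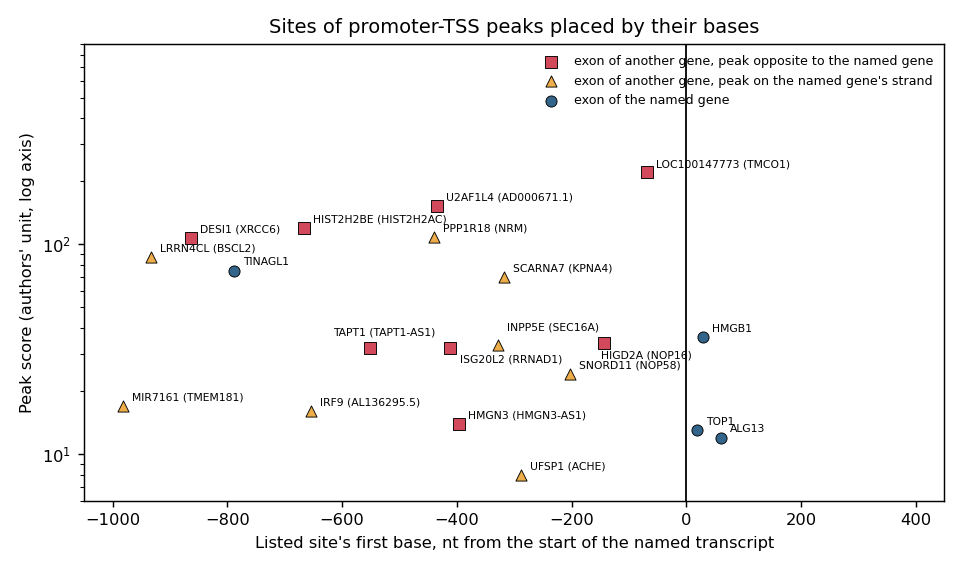
Score (log axis) of each promoter-TSS peak whose site was found in an exon, against the distance of the site from the named transcript's start in nt; the gene holding the site is in parentheses. Sites in the named gene lie right of the start except TINAGL1, while sites in other genes lie left of it. This split is largely set by the search and nothing is read from it. The window reached 1000 nt to the left of the named start but only 100 nt to the right. A site left of the start also cannot lie in the transcript that begins there.

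A peak of 28 nt and score 23 lay on MIR194-1, one of the genes of miR-194 itself. Its listed site is on the opposite strand, and the bases on the peak's strand (TGTAACAGC) are those at the 5' end of the mature microRNA shown above. Which libraries gave these reads is not stated.

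Of the gene lists, which were drawn by symbol, small RNA genes and histone genes held the largest shares of promoter-TSS peaks. Small RNA genes and their hosts held 48 of 102 peaks (47.1%), against 5.97% over all 7117 peaks with a gene name, and they have no 5' UTR to be listed in. Their promoter-TSS peaks had a median score of 16, and 10 of the 48 scored at least 50. Replication-dependent histone genes, which package new DNA and lie in tight clusters, held 7 promoter-TSS peaks of 10 (70%), with 6 on the opposite strand. HIST1H2BJ was the one on its own strand, at 31. Ribosomal proteins and translation factors held 6 promoter-TSS and 2 5' UTR peaks of 63 (the pseudogene RPL13AP5 included), RNA-binding and splicing proteins 4 and 0 of 107 (HNRNPUL1 highest at 25), and zinc finger genes 10 and 3 of 158 (ZNF83 highest at 38). Symbols of solute carriers held 7 and 4 of 187, with the antisense RNA SLC25A30-AS1 among the 7 and the 5' UTR peaks at a median of 25. Symbols of mitochondrial genes held 5 and 0 of 59, with the antisense RNA NDUFA6-AS1 among the 5, led by NDUFAF7 at 59 on the opposite strand. Of the growth control genes known for regulated 5' UTRs, CDKN1B, a cell cycle inhibitor, had the one 5' UTR peak, at 13, among 16 peaks of 5 genes (6.25%). Over all 7117 peaks with a gene name, 5' UTR peaks made up 1.63%. Their share was 3.17% for ribosomal proteins and translation factors, 1.9% for zinc finger genes and 2.14% for solute carriers. These shares rest on few peaks.

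Most peaks of both classes had another peak of their gene, as did most other peaks of the list. Another peak of the gene was listed for 247 promoter-TSS peaks (58.1%, 53.3 to 62.9%) and 87 5' UTR peaks (75%, 66.1 to 82.6%). The share was 65.6% (64.5 to 66.7%) in the other peaks, counting those without a gene name as having none. Counted over genes it was 46.7% for promoter-TSS and 68.1% for 5' UTR peaks. On the named gene's strand the promoter-TSS share was 62.2% (55.8 to 68.3%), which overlaps the 5' UTR interval, and on the opposite strand it was 51.5%. The nearest peak on the same strand lay a median of 2527 nt from promoter-TSS peaks and 33 nt from 5' UTR peaks. Peaks within 10 nt of the next made up 31.1% of promoter-TSS and 44% of 5' UTR peaks. Of the 132 such promoter-TSS peaks, 115 adjoined another promoter-TSS peak, and of the 51 5' UTR peaks, 31 adjoined a 5' UTR peak, 13 a coding exon peak and 7 a promoter-TSS peak. CTNNB1 shows such a run, with a promoter-TSS peak of 41 and a 5' UTR peak of 28 spaced 9 nt apart. PCGF3 had 5 and 37 at a gap of 1 nt. Neighbouring peaks of a gene are therefore not independent of each other.

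Where a gene also had peaks of other kinds, its member peak was more often the lower one. Of 101 genes with promoter-TSS and other peaks, the promoter-TSS peak was the higher in 35, the lower in 59 and equal in 7, with a median log2 ratio of -0.36 (-0.67 to 0.00) to the gene's highest other peak. For 53 genes with 5' UTR and other peaks the counts were 17, 34 and 2, with a median of -0.38 (-1.0 to 0.00). The 22 genes with opposite-strand promoter-TSS peaks had a median of 0.21 (-0.24 to 0.39), and the 81 with same-strand ones -0.53 (-0.87 to -0.11). Both groups include TRHDE, which is not among the 101, because its 2 peaks are promoter-TSS peaks on different strands. A gene with several peaks of other kinds has more chances of a high one, which lowers these ratios. Among the genes with the most peaks, CBLN2 had 14, PMEPA1 13, C22orf34 11 and PTCH1 9. PMEPA1 had 129 at its promoter against 165 in its 3' UTR. In PTCH1, the Hedgehog receptor gene, the promoter-TSS peak scored 29 and the 5' UTR peak 8, against 74 elsewhere. ITGB1, integrin beta 1, had 39 against 349, and SLC19A2, a thiamine transporter, had 22 in its 5' UTR against 336. LAPTM4A and TINAGL1 went the other way, with 72 against 33 and 75 against 18.

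**Figure D5:**
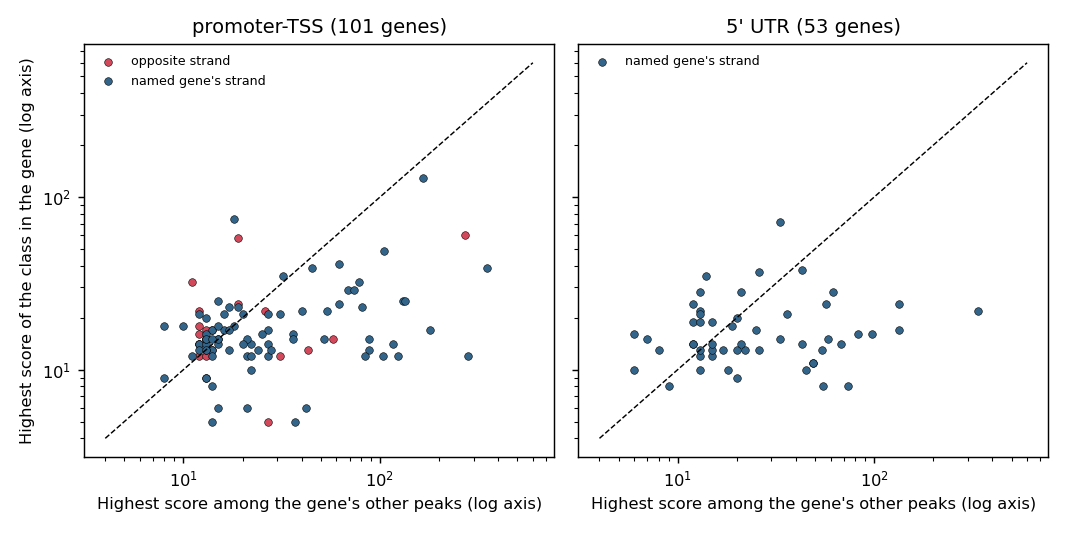
Highest member peak of a gene (vertical) against its highest peak of another kind (horizontal), both scores on log axes, for genes with both; the line marks equal scores. More genes lie below the line than above it in both classes.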

How the data were processed

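The authors deposited 1 peak table with a score per peak, its place on hg19, its annotation and its listed target sites. Per the submitters' processing notes, cutadapt 1.8.1, FastQC, TopHat2 2.0.9, SAMtools and MACS2 were used. The table holds no library columns; 4 unnamed columns held 1 filled cell and were not used, and there were 0 columns of other samples. Whether its coordinates count from 0 or 1 is not stated, and lengths are end minus start plus 1.

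Sites were classed by their bases, 9 per site with the 6mer from place 3. Gene strand came from RefSeq, or GENCODE 29 where RefSeq had none, with 538 of 541 peaks matched to RefSeq. Tested on exon, 3' UTR and intron peaks, it gave 5918 of 5931 on the named strand. Neighbouring exons and site positions were found wholly on GRCh38, and distances between peaks on hg19. The sources used here do not give the reach of the promoter label. Medians have exact order-statistic 95% intervals and shares Clopper-Pearson ones. No test was run, because there is 1 value per peak and no replicate; scripts were tested on simulated data. The named peaks are the 10 highest of each class, 8mer peaks, the shortest and longest, genes with both classes or most peaks, and the list leaders; 1 gene that this rule covers is not reported here. Members and lists were chosen with earlier results of these data known. The exon split, the score limits, the neighbouring-exon search, site placement, the 10 nt gap and the split by kind of gene were added after the values were seen. Python 3.11.15, numpy 2.4.6, pandas 2.3.3, scipy 1.17.1 and matplotlib were used.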

Additional observations from a re-analysis of the deposited data

How the results depend on the processing

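Of 56 alternative settings, 50 left the value within its 95% interval and 6 did not. This count does not measure robustness, because several settings kept the same 116 5' UTR peaks or the same 7 matched ones and could not move a value. The 5' UTR intervals are also wide. With 8mers alone the 5' UTR match share went from 6.03% to 2.59% and the score ratio from 2.13 to 1.36, both still within them. Counting 8mers alone put the share of promoter-TSS peaks with a match at 1.18% and their score ratio with over without a match at 1.03, on 5 peaks. The share of promoter-TSS peaks whose gene has another peak was 52.9% among peaks scoring at least 12, 46.7% counted over genes and 43.5% for another peak within 1000 nt, and the last setting gave 61.2% for 5' UTR peaks. The cause was not tested. No paired analysis was possible because the table holds no value per library. Small groups limit the 5' UTR results most: 7 peaks carry the match and 23 lie outside exon 1. Depth per library is unknown, so no floor could be set for a low score.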
